A study of Mus musculus with 6 samples.

Results

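Marker genes of liver sinusoidal endothelial cells were examined in bulk liver RNA. The 10 genes were Stab1, Stab2, Lyve1, Mrc1, Fcgr2b, Clec4g, Oit3, Ehd3, Kdr and Pecam1, taken by symbol, and all 10 were found once each among the 28880 genes of the deposited table. Livers came from 3 mice of an acute ethanol group and 3 mice of a control group, each library from a different animal. All were male wild-type C57BL/6J mice aged 6 to 8 weeks and all carried the same batch label. Mice of the ethanol group were fasted for 12 h, were given ethanol (50%) once by mouth, 6 g/kg in all, and their livers were removed 24 h afterwards. Control mice received no ethanol, and the sources used here do not say whether they were fasted or given a vehicle, so ethanol and fasting cannot be told apart. This is a single-dose model of early injury.

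Sinusoidal endothelial cells line the capillaries of the liver lobule. They are perforated by fenestrae, lack a continuous basement membrane, and clear macromolecules from the blood through scavenger and lectin receptors that cycle rapidly through endosomes. Their differentiated state is maintained in part by VEGF from hepatocytes, which acts through the receptor encoded by Kdr. Several of the markers are shared with other cells: Mrc1, Stab1 and Fcgr2b are also made by macrophages, Fcgr2b by B cells, Pecam1 by all endothelium, platelets and leukocytes, and Lyve1 by lymphatic endothelium.

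Between 60514417 and 74210869 reads per library were counted on genes, and the 10 genes together took 0.00952% to 0.0271% of them. Levels are given as CPM (read counts relative to library size after TMM scaling, edgeR's correction for differences in RNA composition) unless FPKM is named. The TMM factors were 0.768 to 0.836 in ethanol mice and 1.26 to 1.27 in control mice. This scaling matters for the CPM values and the edgeR tests that use it. The median log2 fold change of the 16717 genes tested was -0.04 with it and -0.71 with library size alone. In bulk tissue, fewer cells of a type and less RNA per cell cannot be told apart.

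The sinusoidal markers did not move together after ethanol. Kdr, Ehd3, Oit3, Fcgr2b, Clec4g and Mrc1 fell, by 1.67-fold to 2.97-fold, while Lyve1 rose 12.0-fold. Stab1, Stab2 and Pecam1 did not pass the test. The count was thus 6 lower and 1 higher of 10 at a Benjamini-Hochberg adjusted p under 0.05 in the quasi-likelihood test of edgeR, the test used throughout, where 21.5% of all genes tested were lower and 21.5% were higher. With library size alone 8 members were lower and 1 higher, while 8077 of all genes were lower and 1236 higher, against 3591 and 3598 with TMM scaling. With a log2 fold change beyond 1 also required, 4 were lower (background 13.8%) and 1 was higher (background 10.4%). The median log2 fold change of the 10 genes was -0.87. The CPM of all 3 ethanol mice lay below that of all 3 control mice for 6 of the genes (background 31.0%) and above it for 1 (background 28.0%).

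**Figure D1:**
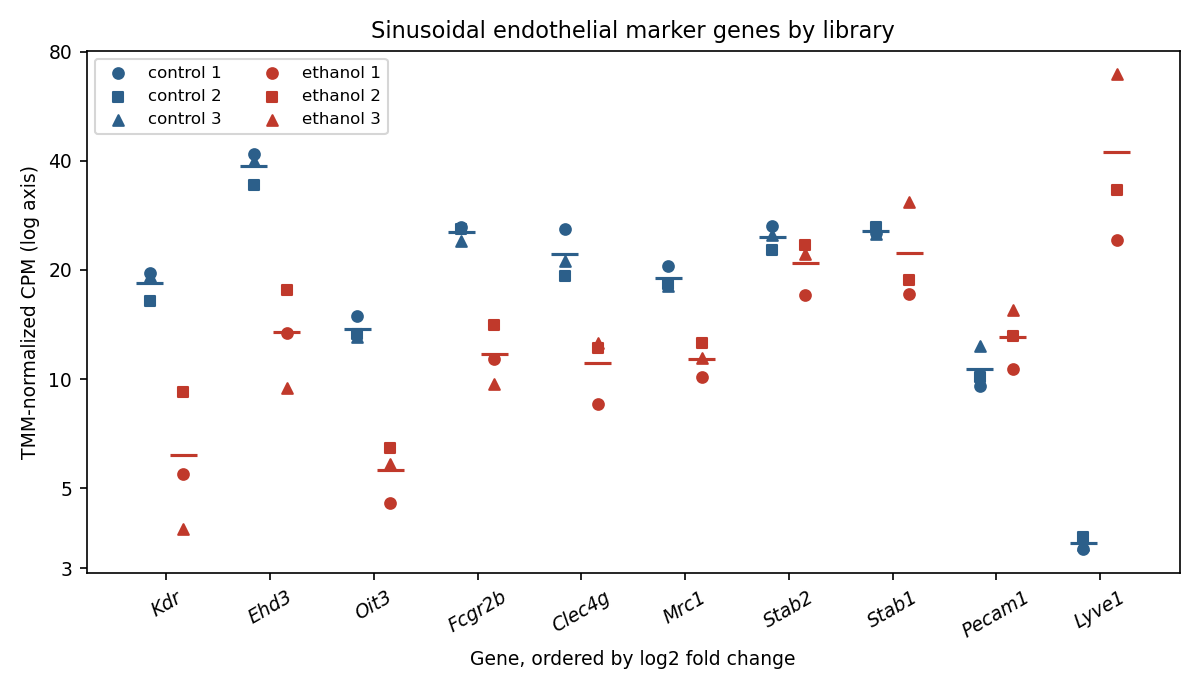
TMM-normalized CPM (log axis) of the 10 marker genes in each library, ordered by log2 fold change, with control mice in blue, ethanol mice in red, marker shapes for the replicate number and horizontal bars for group means. The groups separate for the 6 genes on the left and for Lyve1 on the right, and overlap for Stab2, Stab1 and Pecam1.

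Promoters are shown for genes that fell, with a gene that did not pass the test for contrast, because the members share a cell type but not a direction. The sequences are from RefSeq (GRCm38.p6) and run from 250 bases before to 50 bases after the annotated start. The table held a promoter for 7 of the 10 genes and none for Lyve1, Oit3 and Pecam1. Capitals mark matches, on either strand, to AGGAAG (a core bound by ETS factors), AGATAA (a core bound by GATA factors), GGGCGG (the Sp1 box) and TATAAA (the TATA box). Overlapping matches were counted, and positions give the first base of a match relative to the start.

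Kdr (chr5:75978406-75978705, minus strand): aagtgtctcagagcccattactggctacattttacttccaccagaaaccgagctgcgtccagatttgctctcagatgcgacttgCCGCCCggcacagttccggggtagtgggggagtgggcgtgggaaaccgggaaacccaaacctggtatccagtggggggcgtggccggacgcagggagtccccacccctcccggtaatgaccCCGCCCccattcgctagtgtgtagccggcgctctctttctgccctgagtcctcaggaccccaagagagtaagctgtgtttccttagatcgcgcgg

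Ehd3 (chr17:73804591-73804890, plus strand): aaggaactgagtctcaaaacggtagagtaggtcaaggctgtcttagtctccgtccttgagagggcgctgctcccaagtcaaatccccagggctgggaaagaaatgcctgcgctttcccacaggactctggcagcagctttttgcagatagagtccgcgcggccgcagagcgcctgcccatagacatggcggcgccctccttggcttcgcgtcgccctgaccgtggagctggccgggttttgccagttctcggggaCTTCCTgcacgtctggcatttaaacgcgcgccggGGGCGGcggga

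Clec4g (chr8:3720602-3720901, minus strand): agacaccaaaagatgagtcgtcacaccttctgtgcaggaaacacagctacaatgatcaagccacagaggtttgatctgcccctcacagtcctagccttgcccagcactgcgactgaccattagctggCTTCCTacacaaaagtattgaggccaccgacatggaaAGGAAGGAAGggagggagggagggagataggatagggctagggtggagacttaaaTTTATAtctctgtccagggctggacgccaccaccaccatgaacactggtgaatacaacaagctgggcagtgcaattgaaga

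Stab2 (chr10:87007893-87008192, minus strand): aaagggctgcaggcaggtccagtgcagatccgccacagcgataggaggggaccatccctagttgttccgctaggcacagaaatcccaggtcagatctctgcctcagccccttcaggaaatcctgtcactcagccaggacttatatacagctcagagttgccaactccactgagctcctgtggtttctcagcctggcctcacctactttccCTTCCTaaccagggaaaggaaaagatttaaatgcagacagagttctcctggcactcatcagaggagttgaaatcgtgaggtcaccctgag

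Kdr held the Sp1 box 2 times, with no ETS match. Ehd3 held 1 ETS match and 1 Sp1 box, both after the start. Clec4g held 3 ETS matches, of which the pair at -86 and -82 overlap, and a TATA match on the opposite strand at -31. Stab2 held 1 ETS match at -40. Over the 7 promoters, AGGAAG was found in 5, including those of Stab1 and Stab2, and AGATAA in 0, against 35.4% and 11.2% of all 32851 promoters of this length. The Sp1 box was in 3 (35.7% of all) and the TATA box in 1 (13.6% of all). The promoter GC content was 60.7% for Kdr and 61.7% for Ehd3, against 51.0% for Clec4g, 53.0% for Stab2 and a median of 52.7% over all promoters. The letters are a description of these windows only.

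Among the clearance receptors, Lyve1 (ENSMUSG00000030787), a receptor for the matrix sugar hyaluronan, stood at 3.39, 3.67 and 3.49 CPM in control mice and at 24.2, 33.3 and 69.3 CPM in ethanol mice. The lowest ethanol mouse was far above the highest control mouse, and the ethanol mice were spread widely. The log2 fold change was 3.59 (SE 0.39, edgeR adjusted p = 0.000692), with a 95% interval for the fold of 6.32 to 22.8. Raw counts were 1394, 2035 and 3781 against 318, 280 and 287, so the rise does not rest on the scaling. Without ethanol replicate 3, the highest mouse, the log2 fold change was 3.04.

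Mrc1 (ENSMUSG00000026712), the mannose receptor, stood at 20.6, 18.3 and 18.1 CPM in control mice and at 10.1, 12.6 and 11.4 CPM in ethanol mice. The groups did not overlap, and the log2 fold change was -0.74 (SE 0.13, adjusted p = 0.00419, edgeR), the smallest of the 6 falls. Clec4g (ENSMUSG00000074491), a C-type lectin of sinusoidal endothelium also known as LSECtin, stood at 25.97, 19.3 and 21.2 CPM in control mice and at 8.52, 12.1 and 12.6 CPM in ethanol mice. Its log2 fold change was -0.998 (SE 0.19, adjusted p = 0.00575). Fcgr2b (ENSMUSG00000026656), the inhibitory Fc receptor that takes up small immune complexes, stood at 26.3, 25.99 and 24.0 CPM in control mice and at 11.4, 14.1 and 9.69 CPM in ethanol mice. It changed by -1.12 on the log2 scale (SE 0.16, adjusted p = 0.00168). All 3 receptors were lower in every ethanol mouse than in any control mouse.

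The stabilins, large scavenger receptors that clear hyaluronan and other ligands, did not pass the test in the same livers. Stab2 (ENSMUSG00000035459) stood at 26.4, 22.7 and 24.9 CPM in control mice and at 17.0, 23.4 and 22.2 CPM in ethanol mice. Stab1 (ENSMUSG00000042286) stood at 25.3, 26.3 and 25.1 CPM in control mice and at 17.1, 18.8 and 30.8 CPM in ethanol mice. The groups overlapped for both. The log2 fold change was -0.24 for Stab2 (95% interval -0.59 to 0.10, adjusted p = 0.220) and -0.20 for Stab1 (95% interval -0.72 to 0.31, adjusted p = 0.483, edgeR). The intervals reach down to a fold of 0.666 for Stab2 and 0.608 for Stab1. Stab1 in ethanol replicate 3 was above all control mice, and without that library its log2 fold change was -0.50 and passed (adjusted p = 0.00292). Both passed as lower with library size alone (-0.88 for Stab1 and -0.91 for Stab2).

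Ehd3 (ENSMUSG00000024065), a membrane-shaping ATPase of endosomal recycling, stood at 41.8, 34.2 and 40.1 CPM in control mice and at 13.4, 17.6 and 9.42 CPM in ethanol mice. The fall was 2.87-fold (log2 fold change -1.52, SE 0.23, adjusted p = 0.00209, edgeR). Oit3 (ENSMUSG00000009654), a secreted protein with a zona pellucida domain, stood at 14.9, 13.3 and 13.04 CPM in control mice and at 4.54, 6.46 and 5.81 CPM in ethanol mice. The fall was 2.46-fold (log2 fold change -1.30, SE 0.17, adjusted p = 0.00137). For both genes each ethanol mouse was below every control mouse, with no value of one group within the range of the other.

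Kdr (ENSMUSG00000062960), the main signalling receptor for VEGF-A, fell in the TMM-scaled test. It stood at 19.6, 16.4 and 19.2 CPM in control mice and at 5.47, 9.22 and 3.87 CPM in ethanol mice, a 2.97-fold fall (log2 fold change -1.57, SE 0.30, adjusted p = 0.00598, edgeR). With limma on log2(FPKM + 1), a scale that understates the changes of low genes, Ehd3 (-1.67), Oit3 (-1.46), Clec4g (-1.42) and Fcgr2b (-1.31) all fell more than Kdr (-1.18). Pecam1 (ENSMUSG00000020717), the adhesion molecule CD31 of endothelial junctions, stood at 9.59, 10.1 and 12.4 CPM in control mice and at 10.7, 13.1 and 15.5 CPM in ethanol mice. The groups overlapped, and its log2 fold change was 0.29 (95% interval -0.13 to 0.71, adjusted p = 0.226). Its sign depended on the scaling, at -0.38 with library size alone.

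Levels can be compared between genes only per length, as FPKM. In each control mouse Clec4g was the highest of the 10 (10.6 ± 1.68 FPKM, SD, n = 3) and Lyve1 the lowest (1.41 ± 0.0554 FPKM). Ehd3 (6.96 ± 0.726 FPKM), Oit3 (5.82 ± 0.448 FPKM) and Fcgr2b (5.18 ± 0.266 FPKM) followed Clec4g in this order in every control mouse. Mrc1 (3.51 ± 0.266 FPKM) and Stab2 (3.32 ± 0.258 FPKM) exchanged places in 1 of the control mice. In each ethanol mouse Lyve1 was the highest (10.6 ± 5.70 FPKM), Clec4g came next (3.34 ± 0.727 FPKM) and Kdr was the lowest (0.513 ± 0.253 FPKM). The other 7 members had means between 1.33 and 1.77 FPKM in ethanol mice, and their order differed from mouse to mouse: Ehd3 came next after Clec4g in 2 of these mice and was next to last in the other, at 1.03 FPKM. The deposited FPKM carry no correction for RNA composition. On that scale all ethanol mice were below all control mice for every member except Lyve1, as they were for 57.4% of all genes tested.

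**Figure D2:**
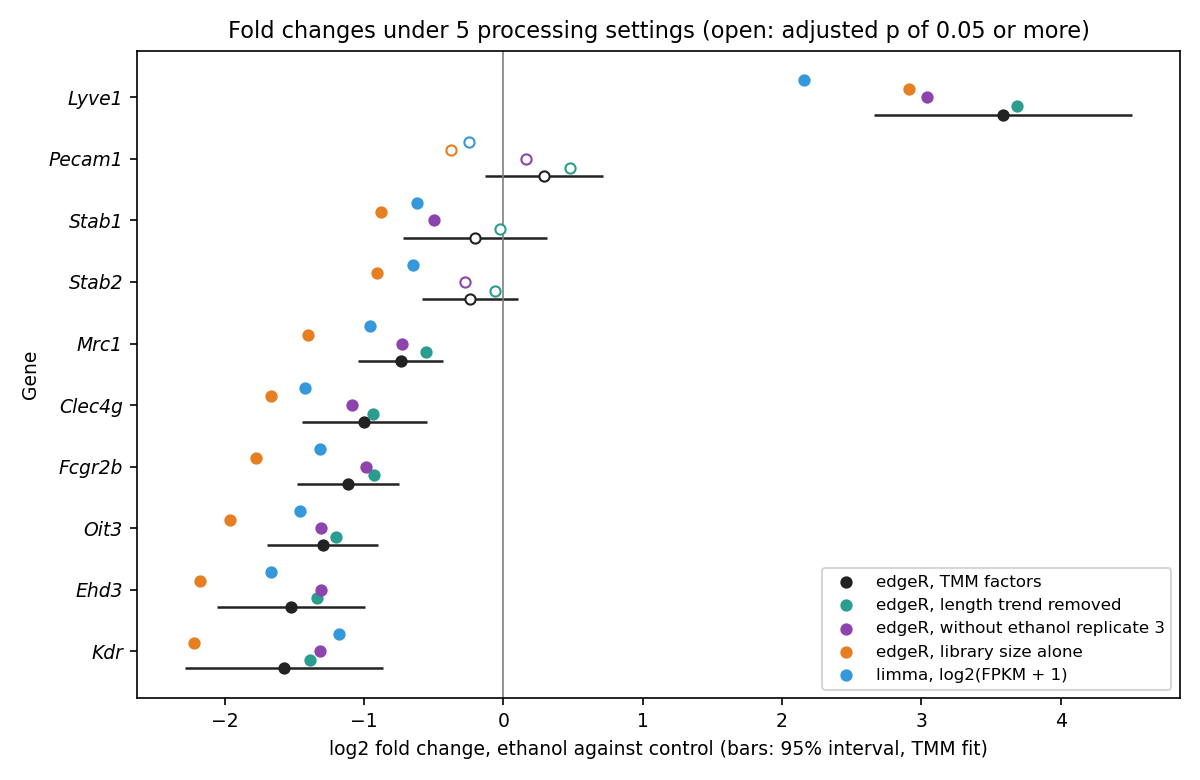
Log2 fold change of each marker gene, ethanol against control, under 5 processing settings, with bars for the 95% interval of the TMM-scaled edgeR fit, filled points for an adjusted p under 0.05 and open points otherwise. Lyve1 is higher and the 6 lowest genes are lower under each setting, while Stab1 and Stab2 move between open and filled and Pecam1 lies on both sides of 0.

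To describe the markers without any scaling between libraries, each was set against the mean log2 CPM of 18 genes expressed by endothelium in general (Cdh5, Tie1, Eng, Egfl7 and others) within the same library. Kdr lay 1.94, 1.68 and 1.81 log2 units above this mean in control mice and at 0.27, 0.60 and -0.95 in ethanol mice, a difference of -1.83 between the group means. Ehd3 differed by -1.73, Oit3 by -1.48, Fcgr2b by -1.30, Clec4g by -1.18 and Mrc1 by -0.91 between the groups. Stab1 lay at 2.30, 2.35 and 2.20 in control mice and at 1.92, 1.63 and 2.05 in ethanol mice. Stab2 lay at 2.36, 2.14 and 2.19 and at 1.91, 1.95 and 1.57 in the same order. Both differed by -0.42, and on this scale, unlike the CPM scale, each ethanol mouse was below every control mouse. Lyve1 lay at -0.60, -0.48 and -0.65 in control mice and at 2.42, 2.45 and 3.22 in ethanol mice, a difference of 3.27. Pecam1 differed by 0.12, with overlapping groups. With the median of the 18 genes in place of their mean, a choice made after seeing that Ramp2 had 1880 counts in ethanol replicate 3 against 96 and 154 in the other ethanol mice, 8 genes lay below, 1 above and 1 across, as with the mean. Of all genes tested, 32.8% lay below and 16.4% above on the scale of the mean, and 40.6% and 5.34% on that of the median. The differences of Stab1 and Stab2 were then -0.89 and -0.895, that of Mrc1 was -1.38 and that of Pecam1 was -0.36. The others ran from -2.30 for Kdr to -1.65 for Clec4g, and Lyve1 was at 2.80. The reference was not fixed: its mean was 2.18, 2.60 and 2.90 log2 CPM in ethanol mice and 2.36, 2.36 and 2.45 in control mice. That is a difference of 0.17 between the group means. Each difference above thus holds the movement of the reference as well as that of the marker. With the median every member lay lower than with the mean, which reflects the reference and not the markers. These values are a description, with no test. They carry no correction for transcript length, so only differences between the groups can be read from them.

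**Figure D3:**
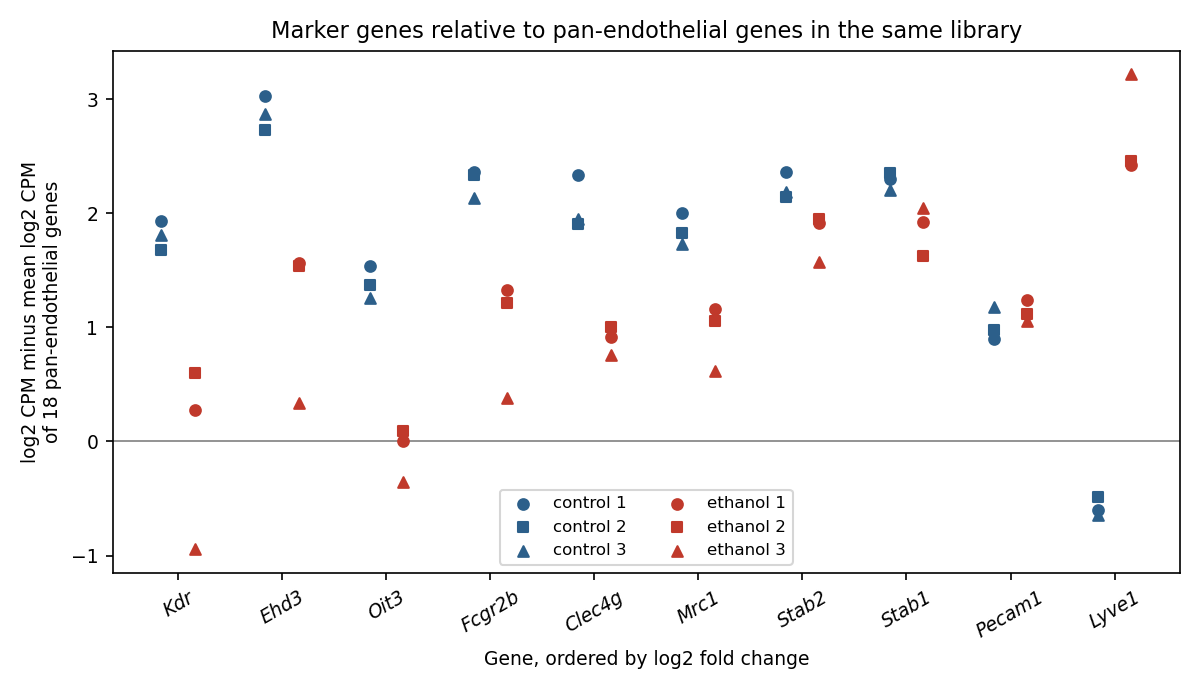
Log2 CPM of each marker gene minus the mean log2 CPM of 18 pan-endothelial genes in the same library, for control mice (blue) and ethanol mice (red), with 0 marking the pan-endothelial mean. Ethanol mice lie below control mice for 8 genes and above them for Lyve1, and ethanol replicate 3 has the lowest value of Kdr, at -0.95.

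The ethanol mice varied among themselves more than the control mice did for several markers. In ethanol replicate 3, Lyve1 (69.3 CPM), Stab1 (30.8 CPM), Pecam1 (15.5 CPM) and Clec4g (12.6 CPM) had the highest values of that group, while Kdr (3.87 CPM), Ehd3 (9.42 CPM) and Fcgr2b (9.69 CPM) had the lowest. The SD of Stab1 was 7.45 CPM in ethanol mice and 0.614 CPM in control mice. The neutrophil gene S100a8 also had more counts in ethanol replicate 3 (160) than in the other ethanol mice (33 and 40). Its part in the marker values was not tested.

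Of the 18 genes expressed by endothelium in general, edgeR called 4 higher and 3 lower, near the 21.5% of all genes called in each direction, and their median log2 fold change was 0.04. The background of 21.5% each way also stands beside the counts of all lists that follow where no other setting is named. With library size alone 1236 of the 16717 genes were higher and 8077 lower. Without ethanol replicate 3 the counts were 4351 and 4827 of 17622 in the same order. Removing the trend with transcript length gave 3972 and 3016 of 16717. DESeq2 gave 3761 and 4234 of 26459, and limma on log2(FPKM + 1) gave 1220 and 8389 of 16012. Nos3, the endothelial nitric oxide synthase, rose from 2.62 ± 0.171 to 23.5 ± 7.49 CPM (SD, n = 3 per group, log2 fold change 3.16, adjusted p = 0.000221). Cdh5, which encodes VE-cadherin of endothelial junctions, rose from 10.7 ± 1.10 to 24.5 ± 4.97 CPM (log2 fold change 1.19, adjusted p = 0.00204). Robo4 and Esam also rose. Tek, the receptor for angiopoietins, fell from 6.54 ± 0.305 to 2.88 ± 0.242 CPM (log2 fold change -1.19, adjusted p = 0.00182), as did the transcription factors Sox17 (-1.66) and Sox18 (-1.83, and -2.48 without ethanol replicate 3). Eng, a coreceptor for TGF-beta ligands, was at 37.8 ± 1.10 and 37.4 ± 1.82 CPM (log2 fold change -0.02, adjusted p = 0.902), and passed as lower with library size alone (-0.68, adjusted p = 0.00136). With library size alone the list had 4 higher and 10 lower, with a median of -0.63.

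Of 17 other genes enriched in sinusoidal endothelium 4 were higher, near the background of 21.5%, and 1 was lower, with a median log2 fold change of -0.22. Dnase1l3, a secreted nuclease, fell (log2 fold change -1.21, adjusted p = 0.00237, edgeR). Ctsl rose by 1.85 on the same scale, and Cd36 (0.71), Aqp1 (0.92) and Flt4 (0.73) rose less. Ctsl, Cd36 and Aqp1 are also made by other liver cells. The transcription factor Gata4, which is needed for sinusoidal identity, was at -0.14 (adjusted p = 0.615), and passed as lower with library size alone (-0.81, adjusted p = 0.00819). With library size alone 1 gene of this list was higher and 9 were lower, and Cd36 (0.05), Aqp1 (0.25) and Flt4 (0.07) no longer passed. Without ethanol replicate 3 the count was 4 higher and 7 lower, and Gpr182 (-1.70, adjusted p = 4.1e-05) and Maf (-1.21, adjusted p = 0.000697) were among the genes that then passed.

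The VEGF family is given beside Kdr because it holds the ligands and coreceptors of that receptor. Of the 9 genes 8 were tested, 2 were higher and 1 was lower. The count was 4 higher and 1 lower without ethanol replicate 3, and 1 higher and 2 lower with library size alone. Vegfa, the ligand of Kdr, was at 113 ± 8.56 CPM in control mice and 139.7 ± 57.9 CPM in ethanol mice (log2 fold change 0.31, adjusted p = 0.436, edgeR), and at 0.61 (adjusted p = 0.00321) without ethanol replicate 3. Its sign turned to -0.35 with library size alone and to -0.44 with limma on log2(FPKM + 1), and it passed in neither. The coreceptor Nrp1 rose from 38.1 ± 3.55 to 144.5 ± 61.1 CPM (log2 fold change 1.92, adjusted p = 0.00360) and Flt4, the receptor for VEGF-C and VEGF-D, by 0.73. Nrp1 and Vegfa are also made by cells outside the endothelium. The ligand Vegfd fell by 1.54 on the log2 scale. Flt1, the decoy receptor that competes with Kdr, was at 0.85, with an adjusted p of 0.0526, and passed with the length trend removed (1.03, adjusted p = 0.0267). The rise of Flt4 was 0.07 with library size alone and no longer passed.

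Among 10 genes of endothelial activation and flow response, 5 rose and the other 5 did not pass, with a median log2 fold change of 1.97. Besides Nos3 these were Thbd, the thrombin receptor thrombomodulin (log2 fold change 3.002, adjusted p = 0.00360), Vcam1, an adhesion molecule for leukocytes (2.18, adjusted p = 0.000203), and the flow-responsive factors Klf2 (2.06, adjusted p = 0.00243) and Klf4 (1.88, adjusted p = 0.00304, all by edgeR). Without ethanol replicate 3 the rise of Thbd was 2.20. Icam1 was at 0.47 (adjusted p = 0.263) and at -0.21 with library size alone. Sele (2.62, adjusted p = 0.161), Selp (0.25, 0.622), Ackr1 (0.28, 0.699) and Edn1 (0.19, 0.795, all by edgeR) did not pass either. The list joins genes of activation and of flow response, so its count of 5 higher is not a measure of activation alone. The count of 5 was the same with library size alone, with limma on log2(FPKM + 1), with the length trend removed and without ethanol replicate 3. Of 8 genes of large vessels and other capillaries that were tested, 1 was higher. This was Rgcc, with no count in control mice and 50 to 125 counts in ethanol mice, at least 42.2-fold higher against a limit of 3 counts per control library. Vwf, a marker of larger vessels, was at -0.60 (adjusted p = 0.169). With library size alone 1 gene of this list was higher and 4 were lower, Vwf among them (-1.27, adjusted p = 0.0127).

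**Figure D4:**
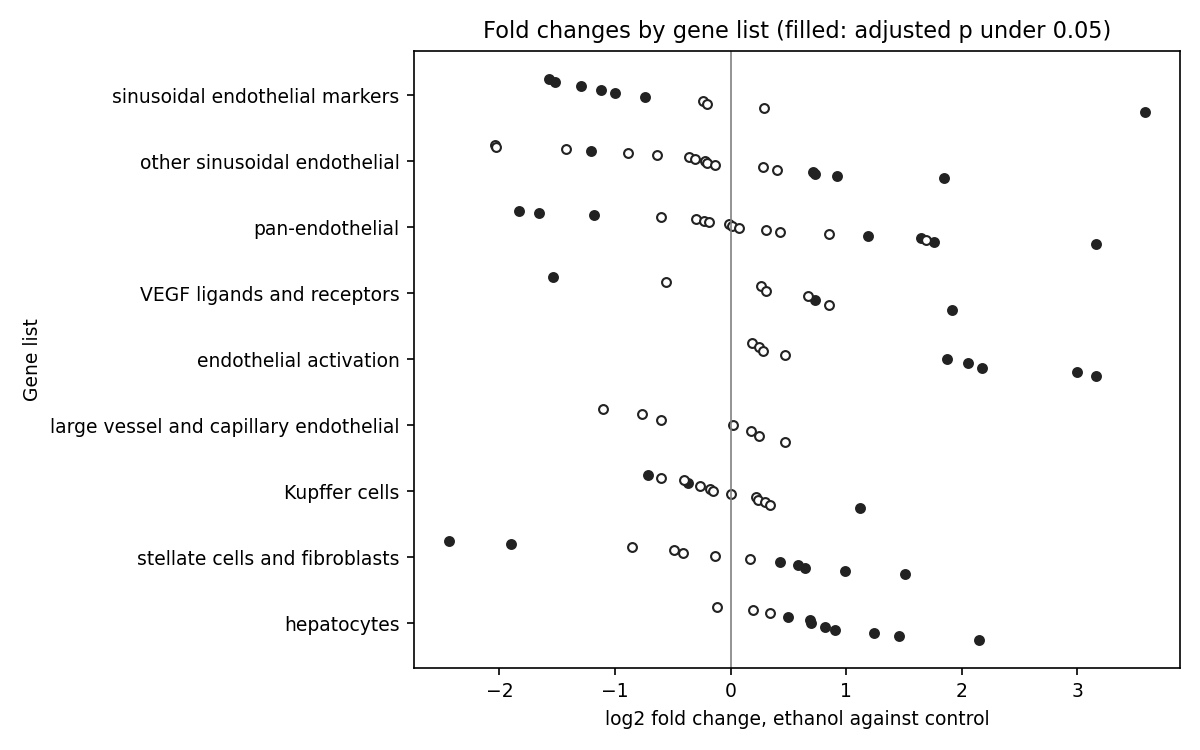
Log2 fold changes, ethanol against control, of the tested genes in 9 lists, 1 point per gene, filled where the adjusted p was under 0.05. Rgcc, with no control count, and Sele, with a control mean of 0.0486 CPM, are left out. The sinusoidal endothelial markers lie mostly to the left of 0 with Lyve1 far to the right. The genes shown for endothelial activation and flow response lie to the right. Of these, Icam1, Selp, Ackr1 and Edn1 turn to the left with library size alone, at -0.21, -0.42, -0.40 and -0.49.

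Markers of cells that share some of these genes are given beside them. Of 13 Kupffer cell markers 1 was higher (Cd68, log2 fold change 1.12) and 2 were lower (Csf1r, -0.71, and Clec4f, -0.37). With the length trend removed Csf1r (-0.52, adjusted p = 0.069) and Clec4f (-0.31, adjusted p = 0.072) did not pass and Vsig4 did (-0.48, adjusted p = 0.0414). Cd68 did not pass with library size alone (0.46, adjusted p = 0.266). The complement gene C1qb was at 0.30 (adjusted p = 0.129) but passed as lower with library size alone (-0.38, adjusted p = 0.0397). The list summed to 140.0 to 191.7 CPM in the ethanol group against 166.0 to 183 CPM in controls. With library size alone 8 of the 13 were lower, where 8077 of all 16717 genes tested were lower. Of 5 lymphatic genes tested 1 was higher (Flt4), while Prox1, which hepatocytes also express, was at 0.35 (adjusted p = 0.346, and -0.33 with library size alone) and the defining marker Pdpn had at most 4 counts in any ethanol library and 4 to 61 in controls. The lymphatic list summed to 101 to 161 CPM with ethanol and 88.3 to 106.8 CPM without. Prox1 alone took 64.9 to 130.1 CPM of this with ethanol and 58.5 to 75.5 CPM without, so the sum mostly follows that gene. Reln, also on the stellate cell list, was at 0.17, Ccl21a at -0.63 and Mmrn1 at -0.86, and none of these passed. B cell markers summed to 1.76 to 3.77 CPM and 1.92 to 3.24 CPM in the same order, with Ms4a1 the 1 gene of 6 called lower and Cd79b at 0.52 (adjusted p = 0.561, and -0.15 with library size alone). Platelet markers summed to 9.86 to 12.1 CPM and 1.77 to 2.55 CPM, with Itga2b (2.30) and Ppbp (2.34) higher of 4 tested. Itga2b alone took 8.06 to 10.6 CPM and 1.48 to 2.19 CPM of these sums. Pf4 (1.66, adjusted p = 0.069) and Gp1ba (1.21, adjusted p = 0.128, both by edgeR) did not pass. Without ethanol replicate 3 Ms4a1 and Ppbp no longer passed, nor did Ppbp with library size alone. The part of these cells in the values of Mrc1, Stab1, Lyve1, Fcgr2b and Pecam1 was not tested.

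Of 11 hepatocyte genes tested 8 were higher, among them Fgb (2.15), Cyp2e1 (1.45), Apoa1 (1.24) and Alb (0.82), and with library size alone 3 were higher and 2 lower, with Alb (0.15) no longer passing. Of 12 stellate cell and fibroblast genes 5 were higher, such as Pdgfra (1.51) and Ecm1 (0.65), and 2 were lower, Col3a1 (-2.44) and Col1a1 (-1.90), while with library size alone 1 was higher and 6 were lower, and Ecm1 was at -0.02. Neutrophil genes summed to 2.71 to 13.7 CPM with ethanol and 1.15 to 1.63 CPM without, with 3 of 4 tested higher, among them S100a8 and S100a9. Sox9 (2.78) was the 1 cholangiocyte gene of 6 that was higher, and Spp1 was at -0.61 (adjusted p = 0.192) but passed as lower with library size alone (-1.27, adjusted p = 0.0182). Without ethanol replicate 3 the cholangiocyte list had 2 higher and 1 lower. Cd4 (-1.78) was the 1 T and NK cell gene of 4 that was lower. Of the T and NK cell genes 2 were lower with library size alone and 3 without ethanol replicate 3 or with DESeq2.

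At the positions in the deposited table, 6 of the 10 markers overlap no other annotated gene. Of the genes with no promoter printed above, that table puts Fcgr2b on chromosome 1, Mrc1 on 2, Lyve1 on 7, Oit3 on 10, Pecam1 on 11 and Stab1 on 14. Its gene starts differ from a GRCm38 annotation, so its coordinates are not set beside the promoter positions. Stab1 shares 112 bases with Nt5dc2 on the opposite strand, a gene with 189 to 635 reads in the ethanol group and 303 to 431 in controls. The genes that overlap Stab2, Clec4g and Fcgr2b, all on the opposite strand, had at most 23 counts in any library. The counts of the members themselves ran from 211 for Kdr in ethanol replicate 3 to 3927 for Ehd3 in control replicate 1.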

How the data were processed

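Bulk liver RNA-seq of 3 ethanol-exposed and 3 control mice was analysed, with groups and replicate numbers from the labels. The authors removed adaptors and poor reads, aligned the rest and deposited a raw count per Ensembl gene. The authors deposited FPKM beside it, scaled to transcript length and library size. The aligner, counting software and strand setting are not given in the sources used here. The labels name GRCm38 and mm10, but of 27049 genes shared with GENCODE M21 (GRCm38) only 606 had the same start, so positions from the table were used only to find overlapping genes. Another 1 column of per-sample values matched no sample and was not used.

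Counts of genes kept by filterByExpr were scaled by TMM and compared in edgeR (quasi-likelihood, two-sided, no covariates), with Benjamini-Hochberg adjustment over all 16717 genes. Intervals of 95% were taken from the standard error and the test's degrees of freedom. R 4.3.3, edgeR 4.0.16, limma 3.58.1 and DESeq2 1.42.0 were used. Tests were checked on simulated data with less spread between replicates and fewer changed genes than here. That check did not cover the shift in RNA composition between the groups. The members and lists were chosen with earlier results of these data known. Named genes are the members, the 2 with the smallest adjusted p among those that passed in each direction in each companion list, Cdh5, Vwf, Vegfa and the gene of highest mean FPKM in each list of another cell type. The others named were added after their values were seen. The transferrin symbol on the hepatocyte list was not found. Alternatives changed the scaling, length trend, filter, test, pseudocount, replicate block and libraries used. Samples of 3 per group were not tested for outlying values.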

Additional observations from a re-analysis of the deposited data

How the results depend on the processing

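The call of Lyve1 as higher and of Kdr, Ehd3, Oit3, Fcgr2b, Clec4g and Mrc1 as lower held under each of the 15 alternatives that tested all members. Log2 fold changes of Lyve1 ran from 2.16 to 3.86 and those of Kdr from -2.22 to -1.18. The scaling moved the level of the whole list. Over all genes, 3598 were higher and 3591 lower as reported, 1236 and 8077 with library size alone, 1220 and 8389 with limma at a pseudocount of 1, 1240 and 8335 at 0.1, and 1266 and 1191 above a mean FPKM of 5. Leaving out a library gave 2508 to 4351 higher and 2346 to 4827 lower, the most without ethanol replicate 3 and the fewest without control replicate 3. The median log2 fold change of the 10 genes was -1.53 with library size alone, -1.07 with limma on log2(FPKM + 1) and -1.4995 with a pseudocount of 0.1. Pecam1 reversed under these, to -0.38, -0.24 and -0.37 in the same order, without passing the test in any. Stab1 passed as lower under these 3 and without ethanol replicate 3, and Stab2 under these 3, which gave 8 members lower. Above a mean FPKM minimum of 5 only Lyve1 and Clec4g were left, so 1 member was lower and the median was 1.03, since fewer genes were tested. Each reached that minimum only through the group where it was higher, so this setting adds nothing to their calls. Lyve1 had a mean of 10.6 FPKM in ethanol mice and 1.41 in control mice, and Clec4g 3.34 and 10.6 in the same order. Leaving out each library in turn, 6 to 7 members were lower and the median ran from -0.95 to -0.75. Correlations of deviations between libraries of the same number were -0.03 to -0.02. They gave no sign of pairing over all genes, but cannot show that libraries of the same number were unrelated. The replicate block left 6 members lower and 1 higher with a median of -0.87, and 2890 higher and 2886 lower over all genes. Removing the trend with transcript length gave -0.74. Each member had 211 counts or more in each library.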
